A study of Mus musculus with 9 samples.

Results

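Protocadherins are calcium-dependent cell adhesion proteins of the cadherin superfamily and are most abundant in the nervous system. The members described here are the protein-coding mouse genes whose symbol starts with Pcdh. They number 69 of the 21250 protein-coding genes with a transcript in the deposited table, and comprise 14 Pcdha, 22 Pcdhb, 21 Pcdhg and 12 non-clustered genes. RNA bound to the RNA-binding protein CELF2 was recovered from the cytoplasmic fraction of P0 mouse cortex by RNA immunoprecipitation and sequenced (RIP-seq). Each of the 3 conditions had 3 biological replicates. CELF2-KI RIP used 10 µg of a rabbit antibody against CELF2 for 3 hours, IgG RIP used normal rabbit IgG in the same way, and input was lysate set aside before the pull-down. All 9 libraries came from mice heterozygous for the CELF2 p.R493H knockin allele, so the comparison is between pull-down and controls within 1 genotype. Wild-type cortex was not part of these libraries, and because the animals were heterozygous, RNA bound by the protein of either allele cannot be told apart. The whole cytoplasmic fraction of the tissue was used, which the labels describe as holding neurons, radial glia, astrocytes, oligodendrocyte precursors, microglia and endothelial cells.

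The Pcdha, Pcdhb and Pcdhg genes lie side by side on chromosome 18. In Pcdha and Pcdhg, each gene has its own first exon, which encodes the extracellular and transmembrane parts, and all genes of a cluster splice it to the same constant 3' exons, so their mRNAs end alike. Each Pcdhb gene is instead a single exon with its own 3' end. A neuron uses a small, largely random choice of the alternate genes, and the C-type genes Pcdhac1, Pcdhac2, Pcdhgc3, Pcdhgc4 and Pcdhgc5 are controlled separately. Clustered proteins bind like to like across membranes and serve self-recognition of dendrites and axons. The non-clustered delta protocadherins are scattered over the genome, bind weakly and act in axon outgrowth, cell sorting and synapse formation.

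The libraries held between 15919600 and 20052716 estimated counts in CELF2-KI RIP, 17365561 to 28773130 with IgG and 69125700 to 105116427 in input. Protein-coding genes took 13519265 to 16836385, 9344325 to 14960841 and 55229679 to 78483586 of them. Transcripts without a gene in the RefSeq table took 11.6% to 12.6% of the counts in CELF2-KI RIP, 21.1% to 43.5% with IgG and 9.27% to 9.78% in input, and IgG RIP replicates 1 and 2 stood apart with the largest shares. Values per library are CPM, the counts of a gene relative to the library size after TMM scaling, which sets the libraries to a common level over most genes. Celf2 mRNA itself was at 470.0, 797 and 647 CPM in CELF2-KI RIP, 267, 231 and 199.9 with IgG and 304, 278 and 305 in input. CELF2-KI RIP was higher than IgG RIP for Celf2 by 1.46 ± 0.18 (SE; adjusted p = 9.69e-05) on the log2 scale and higher than input by 1.11 ± 0.18 (adjusted p = 0.000433). Summed markers of excitatory neurons, 8 of 8 tested, were at 1682 to 2291 CPM in CELF2-KI RIP, 913 to 1062 with IgG and 994 to 1165 in input. Medians of their log2 fold changes were 0.89 against IgG RIP and 0.66 against input. Markers of inhibitory neurons, 8 of 8 tested, had medians of 0.58 and 0.23 and sums of 609 to 744, 384 to 429 and 578 to 597 CPM. Radial glia markers, 8 of 8 tested, summed to 517 to 980, 773 to 861 and 1178 to 1377 CPM and had medians of -0.40 and -0.57. The 8 endothelial markers had medians of -0.00 and 0.10, the 7 microglial markers tested of 8 had -1.32 and -3.06, and the 6 erythroid markers tested of 8 had -1.78 and -3.03. The methods describe input as an aliquot of the cytoplasmic fraction and both pull-downs as made from the remainder. Marker values therefore compare recovered RNA, not numbers of cells. The part of cell makeup in the protocadherin values below was not tested.

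Protocadherin mRNAs as a family sat above IgG RIP in the CELF2 pull-down, by less than 2-fold for most members. Of the 69 genes, 68 had at least 0.5 CPM in at least 3 libraries and were tested. Pcdhb1, an outlying member of its cluster, was too low to test, with 8, 10 and 5 counts in CELF2-KI RIP, 0, 2 and 0 with IgG and 8, 20 and 5 in input. Set against IgG RIP, CELF2-KI RIP had a median log2 fold change of 0.70 over the 68 genes and -0.06 over all 15263 genes tested. The estimate was above 0 for 59 of the 68 genes (86.8%), against 48% of all genes. By edgeR's quasi-likelihood test with Benjamini-Hochberg adjustment over all genes, at FDR under 0.01 and at least 2-fold, 14 protocadherins (20.6%) passed as higher in CELF2-KI RIP than with IgG, against 13.4% of all genes. None was called lower, against 13.5% of all genes, while 1 had an unadjusted p under 0.05 in that direction and DESeq2 called 0 lower. At FDR under 0.01 and any fold, 40 protocadherins (58.8%) were higher, against 22.9% of all genes, and 1, Pcdh15, was lower, against 19.2%. In 48 of the 68 genes the lowest CELF2-KI RIP library was still above the highest IgG RIP library (70.6%), which held for 30% of all genes.

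Against input the median of the family lay closer to that of all genes. Set against input, CELF2-KI RIP had a median log2 fold change of 0.40 for protocadherins and 0.19 for all genes. Here 7 genes (10.3%) were called higher, against 14.6% of all genes. At FDR under 0.01 and any fold, 27 (39.7%) were higher than input, against 26.8% of all genes, and the estimate was above 0 for 56 (82.4%), against 56.4%. The members' share was thus below the background at 2-fold and above it at any fold. None was called lower, against 15.5%, with 1 at an unadjusted p under 0.05 and 0 called lower by DESeq2. The same separation from input was seen for 41 genes (60.3%), against 42.1% of all genes. Only 5 genes (7.35%) were called higher than both controls, which is near the 7.58% of all genes, namely Pcdhb16, Pcdhb17, Pcdhb18, Pcdhb22 and Pcdhgc5. Lower than both controls were 0 members, against 9.52% of all genes. The comparisons with IgG RIP and with input share the CELF2-KI RIP libraries. IgG RIP against input, the background of the pull-down, had a median of -0.23 for protocadherins and -0.00 for all genes. In it 2 members, Pcdha8 and Pcdh15, were called higher in IgG RIP, against 6.79% of all genes. Without CELF2-KI RIP replicate 1 or 3, IgG RIP replicate 1 or 2, or any 1 input library, 1 was called, and without IgG RIP replicate 3 there were 3. With all 9 libraries none was called lower, against 5.01% of all genes, although 19 had an unadjusted p under 0.05 and DESeq2 called 2 lower.

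The number of calls, and whether their share exceeded that of all genes, depended on how libraries were scaled. With library totals in place of TMM, 1 protocadherin (1.47%), Pcdhb12, was called higher than IgG RIP, against 6.14% of all genes, and 1, Pcdh15, was called lower. Upper-quartile factors gave 4 higher (5.88%), against 7.94% of all genes, and 1 lower. TMM over coding and noncoding genes together gave 6 higher (8.82%), against 8.84% of all genes, and 0 lower. The excess over the background in calls against IgG RIP was thus absent under these 3 scalings. Without IgG RIP replicates 1 and 2, 9 were called higher than IgG RIP (13.2%), against 13.4% of all genes in that fit. The same choices moved the all-gene median against IgG RIP from -0.06 to -0.42, -0.32 and -0.27. They moved the share of higher among all genes called from 49.8% to 21.5%, 28.7% and 32.4% against IgG RIP, and from 48.5% to 12.9%, 28.4% and 17.3% against input. For IgG RIP against input this share went from 57.6% to 46.5% with library totals and to 38.5% with TMM over all genes. With library totals, 54 of the 68 estimates were above 0 against IgG RIP and 33 against input, in place of 59 and 56. Above the all-gene median of the same fit were 62 against IgG RIP and 45 against input, with TMM and under each of the 3 scalings. Tested against the 2-fold limit itself by edgeR's glmTreat, 0 protocadherins were called in any comparison, against 3.58% of all genes higher than IgG RIP and 2.22% higher than input. Values below are on the TMM scale and stand against its all-gene medians.

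**Figure D1:**
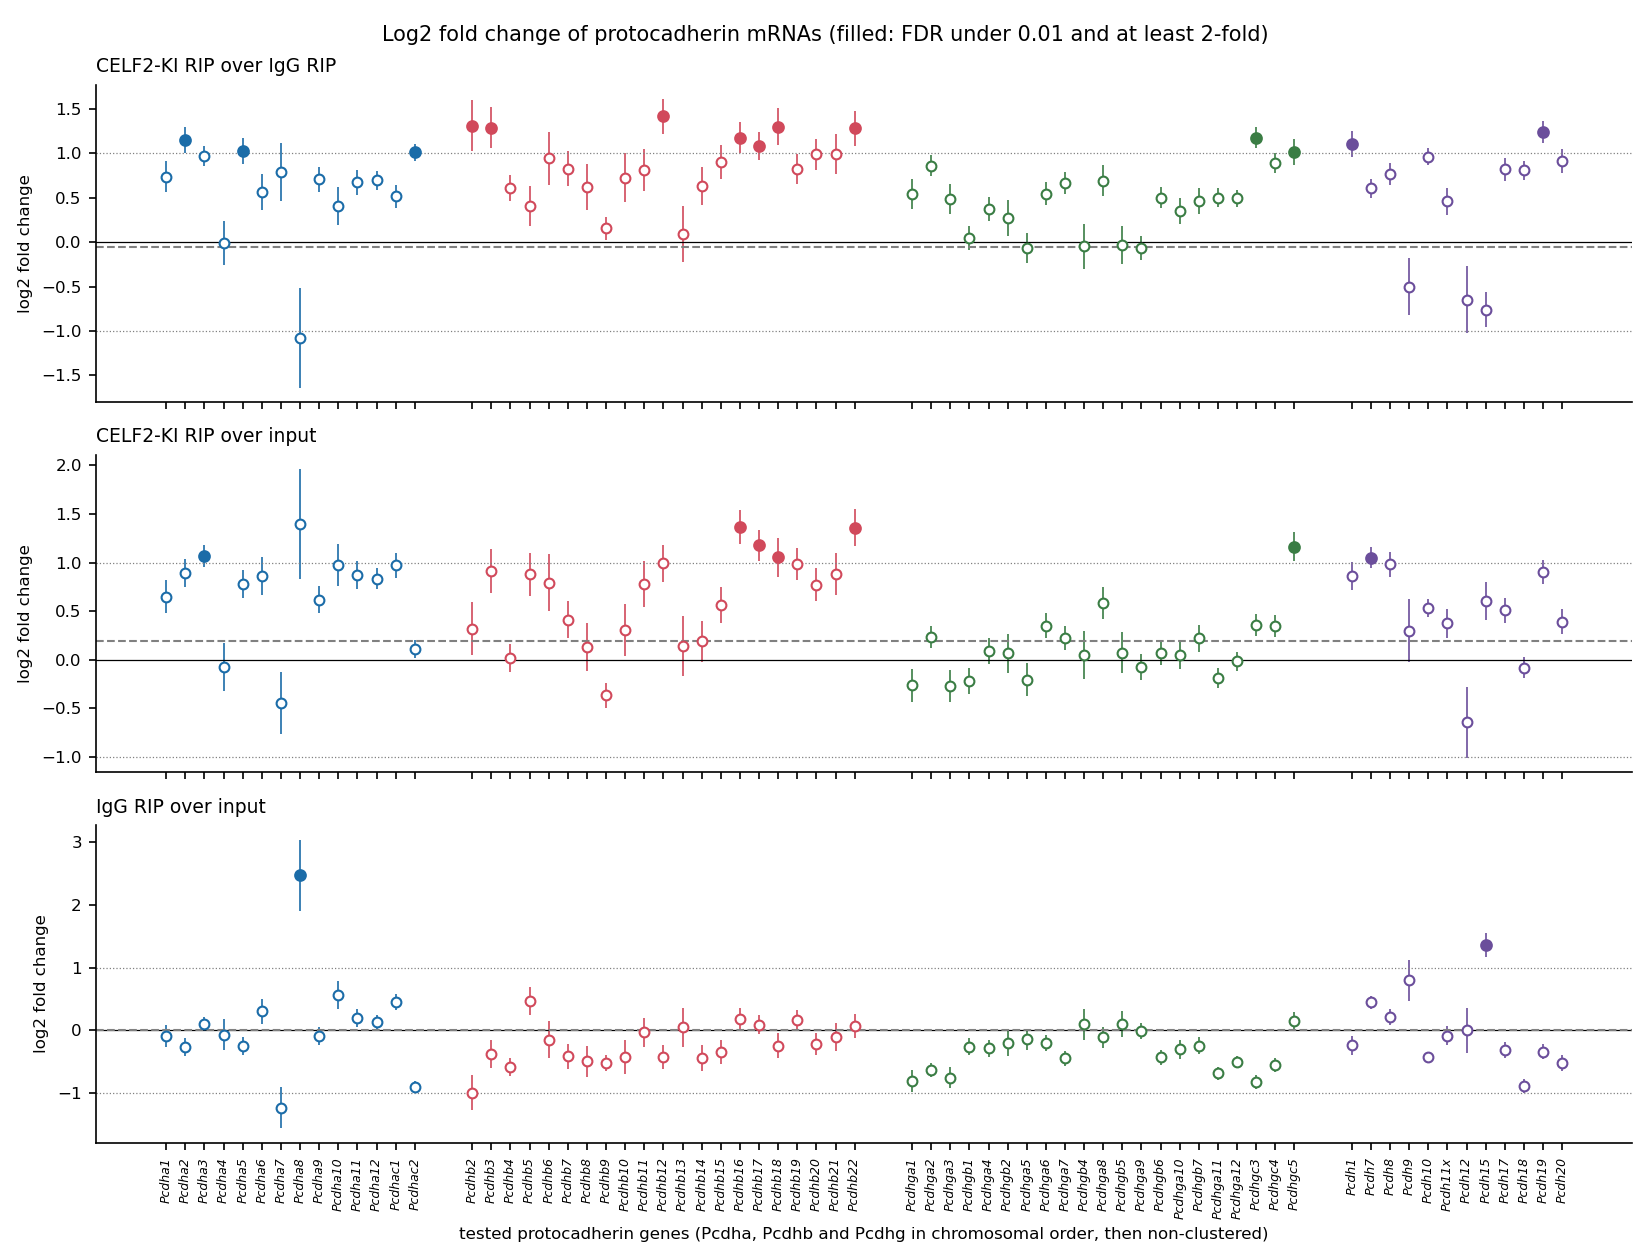
Log2 fold change (points) with its standard error (lines) for the 68 tested protocadherins in the 3 comparisons of 3 libraries against 3, in blue for Pcdha, red for Pcdhb, green for Pcdhg and purple for non-clustered genes. Filled points passed FDR 0.01 and 2-fold, dotted lines mark 2-fold and the dashed line is the median of all 15263 genes, at -0.06, 0.19 and -0.00 from top to bottom; most points lie above it in the top panel, and Pcdhg points lie around it in the middle panel.

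The Pcdhb mRNAs, which do not share a constant 3' exon, had the highest median of the clusters over IgG RIP and were also above input. The median log2 fold change of the 21 tested genes was 0.91 over IgG RIP, with all 21 estimates above 0 and 7 genes (33.3%, against 13.4% of all genes) called higher. It was 0.78 over input, with 20 above 0 and 4 (19.0%, against 14.6%) called higher. The summed cluster was at 520 to 792 CPM in CELF2-KI RIP, 322 to 344 with IgG and 333 to 379 in input, with no overlap between CELF2-KI RIP and the controls. Its log2 fold change in the same edgeR model was 0.96 ± 0.15 (SE) over IgG RIP and 0.83 ± 0.15 over input, and -0.13 ± 0.15 for IgG RIP over input. The highest gene over IgG RIP was Pcdhb12, at 21.3, 32.97 and 20.5 CPM in CELF2-KI RIP, 10.1, 8.72 and 9.18 with IgG and 12.3, 13.3 and 11.95 in input. All 3 CELF2-KI RIP libraries exceeded all controls for Pcdhb12, by 1.42 ± 0.20 (SE; adjusted p = 0.000183) over IgG RIP and 0.99 ± 0.19 (adjusted p = 0.0012) over input, just short of the 2-fold limit in the second. Estimates of single Pcdhb genes include divided reads and are uncertain to that extent, although the genes share no constant exon. Pcdhb2 was low throughout, at 7.84, 10.7 and 11.2 CPM in CELF2-KI RIP, 5.13, 2.18 and 4.52 with IgG and 7.87, 8.33 and 7.65 in input. It was called higher than IgG RIP at 1.31 ± 0.29 (adjusted p = 0.00319) but overlapped input, where the estimate was 0.32 ± 0.27 (adjusted p = 0.334).

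Toward the 3' end of the Pcdhb cluster the genes stood higher against input in both pull-downs. The boundary after Pcdhb15 was chosen after the values were seen, so the split is given without a test, and it rests on these divided estimates. Pcdhb16 to Pcdhb22 had medians of 1.09 over IgG RIP and 1.05 over input. In all 7 every CELF2-KI RIP library exceeded every control library, which held for 25.2% of all genes. The 14 tested genes from Pcdhb2 to Pcdhb15 had medians of 0.77 and 0.37, with 5 separated in this way. IgG RIP over input had medians of 0.07 for Pcdhb16 to Pcdhb22 and -0.42 for Pcdhb2 to Pcdhb15. The control pull-down thus held part of the difference against input. Pcdhb16 was at 70.5, 114 and 74.01 CPM in CELF2-KI RIP, 38.6, 39.5 and 36.2 with IgG and 34.2, 35.2 and 30.9 in input, with a log2 fold change of 1.18 ± 0.18 (SE; adjusted p = 0.000323) over IgG RIP and 1.37 ± 0.18 (adjusted p = 0.000105) over input. Pcdhb22 was at 39.5, 68.6 and 51.5 CPM in CELF2-KI RIP, 20.1, 23.1 and 22.4 with IgG and 21.1, 22.7 and 18.4 in input, with 1.29 ± 0.20 (adjusted p = 0.000326) and 1.36 ± 0.19 (adjusted p = 0.000181). The controls of both genes lay close together and all CELF2-KI RIP libraries were above them. Pcdhb18 was at 36.9, 57.5 and 45.5 CPM in CELF2-KI RIP, 23.03, 18.6 and 15.1 with IgG and 22.97, 24.9 and 19.5 in input, with 1.30 ± 0.21 (adjusted p = 0.000443) over IgG RIP and 1.05 ± 0.20 (adjusted p = 0.00125) over input. Pcdhb17 had 1.09 and 1.18 and was called in both comparisons, and the remaining Pcdhb19, Pcdhb20 and Pcdhb21 lay between 0.83 and 0.99 over IgG RIP and 0.77 and 0.99 over input. Within a library, which needs no scaling, Pcdhb16 to Pcdhb22 made up 61.5%, 63.8% and 63.2% of Pcdhb counts in CELF2-KI RIP, 56.7%, 58.8% and 55.97% with IgG and 52.7%, 50.9% and 51.3% in input. The 3 conditions did not overlap in this share. Input levels per kilobase of gene ran from 1.31 CPM for Pcdhb6 to 10.2 CPM for Pcdhb17 among the tested genes. Of the 7 genes after Pcdhb15, Pcdhb18 and Pcdhb21 were below 5 CPM per kilobase in input and the other 5 were above it, while Pcdhb9, at 7.77, was among the highest in input and not enriched.

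The lowest Pcdhb genes over IgG RIP were Pcdhb13, Pcdhb9 and Pcdhb5. Pcdhb9 was at 19.1, 18.4 and 17.7 CPM in CELF2-KI RIP, 16.6, 14.6 and 18.2 with IgG and 23.4, 24.3 and 23.5 in input, so its CELF2-KI RIP libraries overlapped IgG RIP and were below input, at 0.16 ± 0.13 (SE; adjusted p = 0.337) and -0.37 ± 0.13 (adjusted p = 0.0303). Pcdhb13 was at 7.52, 9.55 and 9.64 CPM in CELF2-KI RIP, 10.5, 10.4 and 4.16 with IgG and 9.11, 8.20 and 6.86 in input, with 0.09 ± 0.32 (adjusted p = 0.824) over IgG RIP. IgG RIP replicate 3 was the lowest of the 9 libraries for Pcdhb13. Pcdhb5 was at 25.1, 39.9 and 26.4 CPM in CELF2-KI RIP, 25.2, 17.1 and 26.5 with IgG and 16.96, 18.2 and 14.6 in input, with 0.41 ± 0.22 (adjusted p = 0.148) over IgG RIP and 0.88 ± 0.22 (adjusted p = 0.00608) over input. For Pcdhb5, 5 of the 6 pull-down libraries were above all input libraries.

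CELF2-KI RIP replicate 2 carried the highest Pcdhb values. It was the highest of its 3 libraries in 17 of 21 tested Pcdhb genes, 19 of 21 Pcdhg, 10 of 14 Pcdha and 9 of 12 non-clustered genes, 80.9% of all tested protocadherins against 42.4% of all genes. Its ratio to the mean of replicates 1 and 3 had a median of 1.39 for Pcdhb, 1.18 for Pcdhg, 1.12 for non-clustered genes, 1.09 for Pcdha and 1.04 over all genes. Without that library, Pcdhb22 alone was called higher than both controls, in place of 5 genes (1.47%, against 5.16% of all genes in that fit). In the same fit 10 in place of 14 were called higher than IgG RIP (14.7%, against 11.3% of all genes). Without CELF2-KI RIP replicate 1, 8 genes were called higher than both controls (11.8%, against 8.94% of all genes). In that fit 15 were called higher than input, in place of 7 (22.1%, against 16.6% of all genes). Without input replicate 2, 9 were called higher than IgG RIP (13.2%, against 11.1% of all genes) and 3 higher than both (4.41%, against 5.38%). Over the 9 fits that each left out 1 library, Pcdhb22 was called higher than both controls in 9, Pcdhb16 in 8, Pcdhb17 and Pcdhb18 in 7 and Pcdhgc5 in 6.

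**Figure D2:**
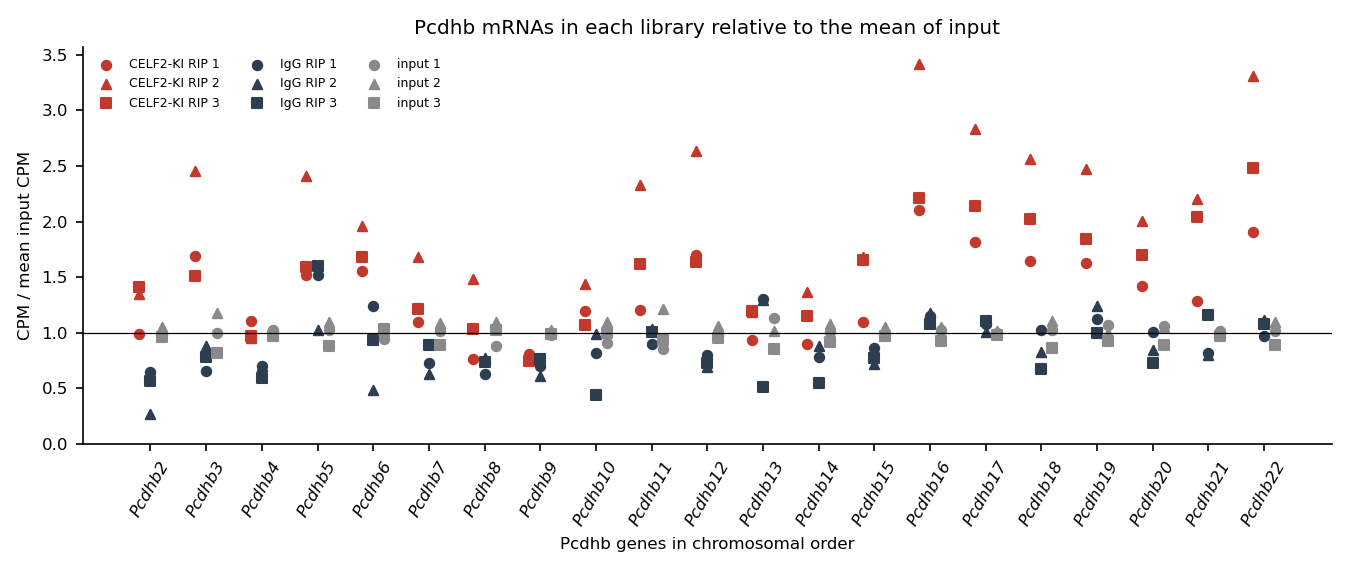
CPM of each tested Pcdhb gene in each library divided by that gene's mean input CPM (vertical axis, linear), with genes in chromosomal order; red marks CELF2-KI RIP, dark blue IgG RIP and grey input, and circles, triangles and squares are replicates 1, 2 and 3. From Pcdhb16 to Pcdhb22 all red points lie above the other points of the gene, and CELF2-KI RIP replicate 2 is the highest point in each of these 7 genes.

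Pcdha mRNAs had medians above both controls, and their summed counts stood higher over IgG RIP than over input. The median of the 14 genes was 0.70 over IgG RIP, with 12 estimates above 0 and 3 called higher (21.4%, against 13.4% of all genes). It was 0.85 over input, with 12 above 0 and 1 called higher (7.14%, against 14.6%). IgG RIP over input had a median of 0.01. The summed cluster, which does not depend on how reads of the constant exons were divided, was at 1011 to 1069 CPM in CELF2-KI RIP, 590.1 to 659 with IgG and 643 to 725 in input. Its log2 fold change was 0.76 ± 0.10 (SE) over IgG RIP and 0.57 ± 0.10 over input. Less the all-gene medians, these values were 0.818 and 0.378. Values of single clustered genes are uncertain, because kallisto divided reads that match several transcripts, which in Pcdha and Pcdhg include the constant exons. Of the estimates above 0, 2.38% were whole numbers, to within 1e-06, in Pcdha, 4.08% in Pcdhb, 0.529% in Pcdhg and 6.91% in non-clustered genes, against 57.7% in other coding genes with 1 transcript. The Pcdhb estimates were thus divided as well, and in 20 of the 21 tested Pcdhb genes no library had a whole number.

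The highest Pcdha genes over IgG RIP were Pcdha2, Pcdha5 and Pcdhac2. Pcdha2 was at 87.2, 89.3 and 91.2 CPM in CELF2-KI RIP, 34.5, 36.1 and 49.7 with IgG and 47.4, 47.6 and 49.2 in input, and all its CELF2-KI RIP libraries were above all controls. Its log2 fold change was 1.15 ± 0.14 (SE; adjusted p = 9.25e-05) over IgG RIP and 0.89 ± 0.14 (adjusted p = 0.000362) over input. Pcdha5 was at 87.6, 96.2 and 96.1 CPM in CELF2-KI RIP, 51.6, 48.9 and 36.9 with IgG and 52.3, 61.4 and 49.4 in input, with 1.03 ± 0.15 (adjusted p = 0.000228) and 0.78 ± 0.15 (adjusted p = 0.00105). Pcdha3, called over input, reached 1.07 ± 0.11 (adjusted p = 3.32e-05) there and 0.97 ± 0.12 (adjusted p = 6.97e-05) over IgG RIP. The lowest were Pcdha8, Pcdha4 and Pcdha10. Pcdha8 was at 6.56, 13.9 and 6.87 CPM in CELF2-KI RIP, 31.2, 20.8 and 5.74 with IgG and 3.10, 5.19 and 2.09 in input. Its IgG RIP replicates 1 and 2 were above every other library and replicate 3 was below the CELF2-KI RIP libraries. IgG RIP was called higher than input for Pcdha8, by 2.47 ± 0.57 (adjusted p = 0.00727), and without IgG RIP replicates 1 and 2 the estimate was 0.72 ± 0.55 (adjusted p = 0.347). For this gene CELF2-KI RIP stood at -1.08 ± 0.56 (adjusted p = 0.13) against IgG RIP. Pcdha4 was at 37.9, 50.4 and 31.96 CPM in CELF2-KI RIP, 36.3, 31.9 and 52.8 with IgG and 47.8, 48.3 and 30.8 in input, with overlapping groups and -0.01 ± 0.25 (adjusted p = 0.976) over IgG RIP. Pcdha10 was at 50.7, 61.7 and 57.2 CPM in CELF2-KI RIP, 54.4, 45.4 and 27.96 with IgG and 29.5, 31.8 and 25.1 in input, where CELF2-KI RIP overlapped IgG RIP but lay above input by 0.97 ± 0.22 (adjusted p = 0.00309).

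The C-type genes of the Pcdha cluster differed in their position against input. Pcdhac2, which serves the spacing of serotonergic axons, was the most abundant Pcdha mRNA at 232, 222 and 235 CPM in CELF2-KI RIP, 109, 110.2 and 122 with IgG and 218, 211 and 209 in input. CELF2-KI RIP was higher than IgG RIP by 1.01 ± 0.09 (SE; adjusted p = 1.65e-05) and was little above input, at 0.11 ± 0.09 (adjusted p = 0.31), while IgG RIP was below input, at -0.90 ± 0.09 (adjusted p = 0.000167). Pcdhac1 was at 46.97, 53.6 and 47.9 CPM in CELF2-KI RIP, 39.2, 30.4 and 33.9 with IgG and 25.9, 25.4 and 24.5 in input. Its estimates were 0.52 ± 0.13 (adjusted p = 0.00665) over IgG RIP and 0.97 ± 0.13 (adjusted p = 0.00012) over input, with CELF2-KI RIP above all controls. Pcdhac2 made up 22.9%, 20.7% and 22.96% of Pcdha counts in CELF2-KI RIP, 16.6%, 18.7% and 20.2% with IgG and 30.2%, 29.1% and 32.5% in input, so its share was highest in input.

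Pcdhg mRNAs were above IgG RIP, and their median over input was near 0. The median of the 21 genes was 0.49 over IgG RIP, with 17 estimates above 0 and 2 called higher (9.52%, against 13.4% of all genes). It was 0.07 over input, below the all-gene 0.19, with 14 above 0 and 1 called higher (4.76%, against 14.6%). The summed cluster was at 2403 to 2789 CPM in CELF2-KI RIP, 1480.3 to 1578 with IgG and 2152 to 2277 in input. Its log2 fold change was 0.76 ± 0.10 (SE) over IgG RIP and 0.22 ± 0.10 over input, and -0.55 ± 0.10 for IgG RIP over input. The alternate genes carried the low values. The 12 Pcdhga genes had medians of 0.50 over IgG RIP and 0.02 over input, and the 6 Pcdhgb genes 0.16 and 0.07. By edgeR's quasi-likelihood test 0 of these 18 genes were called in either comparison. Over IgG RIP, 10 Pcdhga and 2 Pcdhgb genes were higher at an unadjusted p under 0.05, as were 4668 of all 15263 genes. Pcdhga5 was at 28.2, 37.4 and 31.8 CPM in CELF2-KI RIP, 37.8, 26.7 and 37.3 with IgG and 34.6, 37.2 and 40.5 in input, with -0.07 ± 0.17 (adjusted p = 0.766) over IgG RIP. Pcdhga9, at 28.97, 31.8 and 30.98 CPM in CELF2-KI RIP, 34.7, 27.6 and 33.5 with IgG and 31.9, 29.5 and 35.1 in input, had -0.06 ± 0.14 (adjusted p = 0.721). Pcdhgb4, at 26.97, 32.5 and 33.4 CPM in CELF2-KI RIP, 43.9, 32.8 and 19.00 with IgG and 28.6, 29.8 and 31.4 in input, had -0.05 ± 0.25 (adjusted p = 0.893). All 3 conditions overlapped in these lowest genes.

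The Pcdhg C-types stood above the alternate genes over IgG RIP, whereas over input only Pcdhgc5 did. The alternate gene Pcdhga8 was at 0.58 over input, above Pcdhgc3 and Pcdhgc4. Pcdhgc3, which acts in dendrite arborization, was the most abundant clustered protocadherin at 899.6, 995 and 907 CPM in CELF2-KI RIP, 356, 414 and 469 with IgG and 700.5, 724 and 767 in input. CELF2-KI RIP exceeded all controls, by 1.18 ± 0.12 (SE; adjusted p = 2.54e-05) over IgG RIP and 0.35 ± 0.12 (adjusted p = 0.0219) over input, and IgG RIP was below input, at -0.82 ± 0.12 (adjusted p = 0.000625). Pcdhgc4, required for the survival of many interneurons, was at 347, 375 and 309.9 CPM in CELF2-KI RIP, 164, 194 and 197 with IgG and 266, 277 and 268 in input. Its CELF2-KI RIP libraries were also the highest, with 0.89 ± 0.11 (adjusted p = 9.04e-05) and 0.35 ± 0.11 (adjusted p = 0.0195). Pcdhgc5, whose expression rises after birth, was at 74.7, 103 and 83.7 CPM in CELF2-KI RIP, 43.1, 37.3 and 48.8 with IgG and 39.4, 40.4 and 37.2 in input. It was the only Pcdhg gene called in both comparisons, at 1.02 ± 0.15 (adjusted p = 0.000258) and 1.16 ± 0.15 (adjusted p = 9.18e-05).

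Shares within the Pcdhg cluster were also set side by side, since they need no scaling between libraries. They do rest on how kallisto divided the reads of the constant exons, which could not be checked here. Pcdhgc3 made up 37.4%, 35.7% and 36.4% of Pcdhg counts in CELF2-KI RIP, 24.1%, 27.2% and 29.7% with IgG and 32.6%, 32.96% and 33.7% in input. Pcdhgc5 made up 3.11%, 3.70% and 3.35%, then 2.91%, 2.44% and 3.09%, and 1.83%, 1.84% and 1.63%. Both shares were highest in CELF2-KI RIP without overlap, and IgG RIP was lowest for Pcdhgc3 but intermediate for Pcdhgc5. The Pcdhga and Pcdhgb genes together made up 45.04% to 47.9% in CELF2-KI RIP, 54.7% to 61.95% with IgG and 52.6% to 53.3% in input, so they took a smaller share of the cluster in the CELF2 pull-down than in either control.

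**Figure D3:**
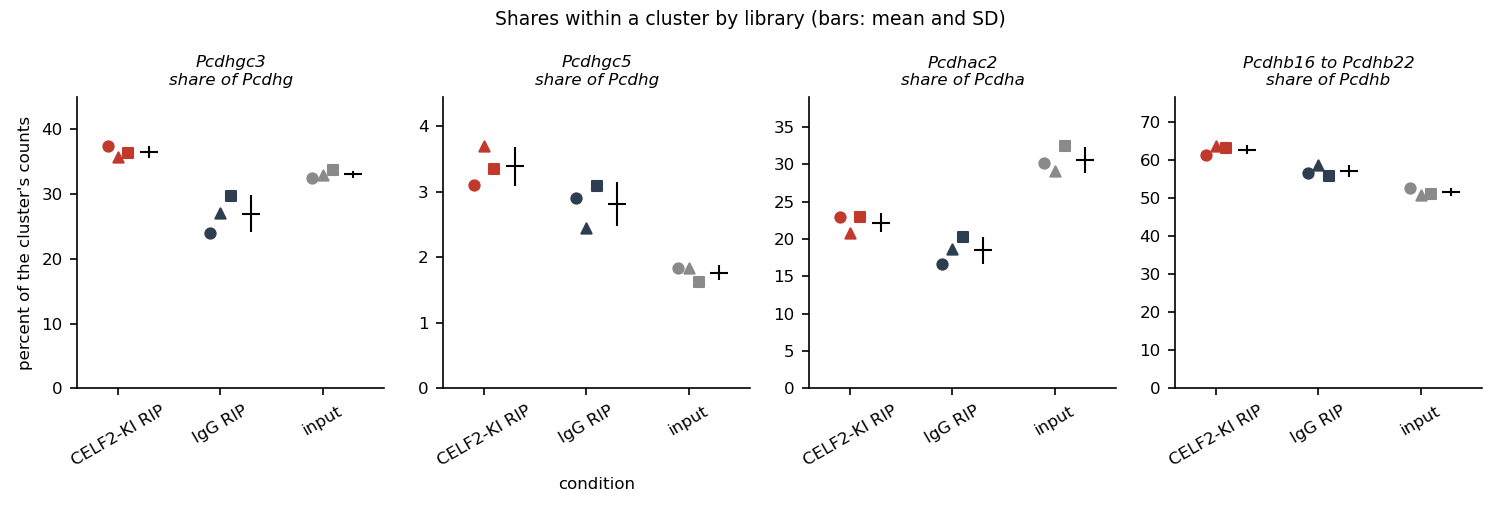
Share of a cluster's counts (percent, linear axes from 0) taken by Pcdhgc3 and Pcdhgc5 in Pcdhg, Pcdhac2 in Pcdha and Pcdhb16 to Pcdhb22 in Pcdhb, with circles, triangles and squares for replicates 1, 2 and 3 and black marks for the mean and SD. CELF2-KI RIP holds the highest Pcdhgc3, Pcdhgc5 and Pcdhb16 to Pcdhb22 shares, with means of 36.5%, 3.39% and 62.8%, and input the highest Pcdhac2 share, with a mean of 30.6%.

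The cluster sums lay closer together over IgG RIP than over input. Sums over IgG RIP were 0.76, 0.96 and 0.76 on the log2 scale for Pcdha, Pcdhb and Pcdhg, and those over input were 0.57, 0.83 and 0.22. Within a library, Pcdhb counts per Pcdhg count were 0.216, 0.284 and 0.240 in CELF2-KI RIP, 0.233, 0.214 and 0.204 with IgG and 0.168, 0.173 and 0.146 in input. Pcdha counts per Pcdhg count were 0.421, 0.383 and 0.410, then 0.445, 0.387 and 0.382, and 0.335, 0.330 and 0.282. Both ratios were higher in every pull-down library than in every input library and overlapped between CELF2-KI RIP and IgG RIP, so this difference was shared by the control pull-down. Pcdhb counts per Pcdha count were 0.514, 0.740 and 0.587 in CELF2-KI RIP, 0.522 to 0.554 with IgG and 0.501 to 0.523 in input, overlapping in all 3 conditions. Non-clustered counts per Pcdhg count were 1.503, 1.63 and 1.67 in CELF2-KI RIP, 1.70, 1.62 and 1.40 with IgG and 1.17, 1.12 and 1.03 in input. No test of the difference between the groups was made, since genes of a cluster share reads and are not independent.

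The 12 non-clustered genes had medians close to those of the clustered genes, with a lower first quartile over IgG RIP but not over input. Their median was 0.79 over IgG RIP, with 9 estimates above 0, 2 called higher (16.7%, against 13.4% of all genes) and 0 called lower. It was 0.52 over input, with 10 above 0 and 1 called higher (8.33%, against 14.6%). The middle range between quartiles over IgG RIP was 0.22 to 0.93, against 0.45 to 0.97 in the 56 tested clustered genes, whose medians were 0.68 and 0.35. Over input this range was 0.35 to 0.87, against 0.07 to 0.88 in the clustered genes. The lowest estimate over IgG RIP was -0.76, against -1.08 in the clustered genes. Of the 12, 8 had every CELF2-KI RIP library above every control, against 28 of 56 clustered genes and 25.2% of all genes.

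Among the delta-2 genes, Pcdh19, the X-linked gene of an epilepsy that mainly affects heterozygous females, was at 576, 797 and 668 CPM in CELF2-KI RIP, 295, 282 and 284 with IgG and 376, 363 and 352 in input. All CELF2-KI RIP libraries were above the tightly grouped controls. Its log2 fold change was 1.24 ± 0.12 (SE; adjusted p = 2.38e-05) over IgG RIP and 0.90 ± 0.12 (adjusted p = 0.000122) over input, and it was called higher than IgG RIP in each of the 9 fits without 1 library. These values include predicted transcripts, which took 40.9% ± 4.2 (SD, n = 3) of Pcdh19 counts in CELF2-KI RIP. The share was 19.1% ± 6.4 with IgG and 15.7% ± 11.7 in input. Pcdh10, which binds the WAVE actin regulators and takes part in synapse removal, was at 691, 792 and 740.2 CPM in CELF2-KI RIP, 389, 376 and 374 with IgG and 523, 522 and 494 in input. It was just under 2-fold over IgG RIP at 0.97 ± 0.09 (adjusted p = 2.06e-05), and 0.53 ± 0.09 (adjusted p = 0.000614) over input. Pcdh8, the activity-induced arcadlin that takes N-cadherin off the surface, was at 491, 688 and 639.7 CPM in CELF2-KI RIP, 343, 357 and 368 with IgG and 311, 312 and 297 in input, with 0.77 ± 0.13 (adjusted p = 0.000514) and 0.98 ± 0.13 (adjusted p = 9.43e-05). For both genes the 3 CELF2-KI RIP libraries were above all controls. Pcdh17, which acts in presynaptic assembly and axon extension, was at 371, 437 and 385 CPM in CELF2-KI RIP, 265, 208 and 201 with IgG and 298, 283 and 257 in input, with 0.82 ± 0.13 (adjusted p = 0.000416) and 0.51 ± 0.13 (adjusted p = 0.00637). The Pcdh17 value over IgG RIP depended on the transcript set, and curated transcripts alone gave -0.01 ± 0.18 (adjusted p = 0.984). Pcdh18 was at 56.1, 67.3 and 64.9 CPM in CELF2-KI RIP, 35.99, 35.6 and 35.9 with IgG and 65.6, 69.7 and 64.1 in input, above IgG RIP by 0.81 ± 0.11 (adjusted p = 0.000169) and level with input at -0.08 ± 0.11 (adjusted p = 0.534). IgG RIP was the low group for Pcdh18, below input, at -0.89 ± 0.11 (adjusted p = 0.000364).

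Among the delta-1 genes, Pcdh1 was at 479, 748 and 568 CPM in CELF2-KI RIP, 283, 278 and 275 with IgG and 330.4, 313 and 345 in input. It was called higher than IgG RIP at 1.10 ± 0.15 (SE; adjusted p = 0.000144) and was 0.86 ± 0.15 (adjusted p = 0.000581) over input. Pcdh7, an axon outgrowth factor of the retina on chr5:57716145-58133236 (GRCm38, the whole gene), was at 669.6, 691 and 779.7 CPM in CELF2-KI RIP, 485, 499 and 422 with IgG and 363, 345 and 327 in input. The groups did not overlap and stood in the order CELF2-KI RIP, IgG RIP, input, with 0.61 ± 0.11 (adjusted p = 0.00083) over IgG RIP and 1.05 ± 0.11 (adjusted p = 2.59e-05) over input. Pcdh11x, on the X chromosome, was at 74.98, 101 and 71.2 CPM in CELF2-KI RIP, 62.7, 55.9 and 60.5 with IgG and 69.6, 65.4 and 55.6 in input, with 0.46 ± 0.15 (adjusted p = 0.0252) and 0.37 ± 0.15 (adjusted p = 0.0533). Pcdh9, on chr14:93013700-93892834 (GRCm38, the whole gene), was at 98.5, 103 and 128 CPM in CELF2-KI RIP, 178, 216 and 72.2 with IgG and 100.2, 95.9 and 71.7 in input. IgG RIP replicates 1 and 2 were the highest of the 9 libraries and replicate 3 was near the lowest. The Pcdh9 estimate over IgG RIP was -0.50 ± 0.32 (adjusted p = 0.217), and it turned to 0.49 ± 0.23 (adjusted p = 0.106) without IgG RIP replicates 1 and 2.

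Pcdh20, Pcdh15 and Pcdh12 fall outside the delta-1 and delta-2 groups. Pcdh20 was at 34.8, 37.8 and 34.7 CPM in CELF2-KI RIP, 16.5, 19.2 and 21.3 with IgG and 28.7, 27.00 and 26.1 in input, with CELF2-KI RIP above all controls and 0.91 ± 0.14 (adjusted p = 0.000273) over IgG RIP. Pcdh15, a tip-link protein of inner ear hair cells, was at 62.2, 77.2 and 73.6 CPM in CELF2-KI RIP, 152, 126 and 82.2 with IgG and 48.1, 48.4 and 43.6 in input. Both pull-downs were above input in all libraries, and IgG RIP was the highest group without overlap. IgG RIP was called higher than input by 1.36 ± 0.20 (SE; adjusted p = 0.000724), and CELF2-KI RIP stood at -0.76 ± 0.20 (adjusted p = 0.0081) against IgG RIP. Without IgG RIP replicates 1 and 2 these values were 0.82 ± 0.15 (adjusted p = 0.00752) and -0.32 ± 0.16 (adjusted p = 0.118). Pcdh12, also called VE-cadherin-2, is made mainly by endothelium and was at 8.88, 6.01 and 9.82 CPM in CELF2-KI RIP, 5.88, 13.7 and 19.1 with IgG and 10.3, 13.8 and 14.5 in input. Its groups overlapped, at -0.65 ± 0.37 (adjusted p = 0.17) over IgG RIP. The 8 endothelial markers summed to 222 to 317 CPM in CELF2-KI RIP, 199 to 439 with IgG and 252 to 397 in input and overlapped in the same way.

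**Figure D4:**
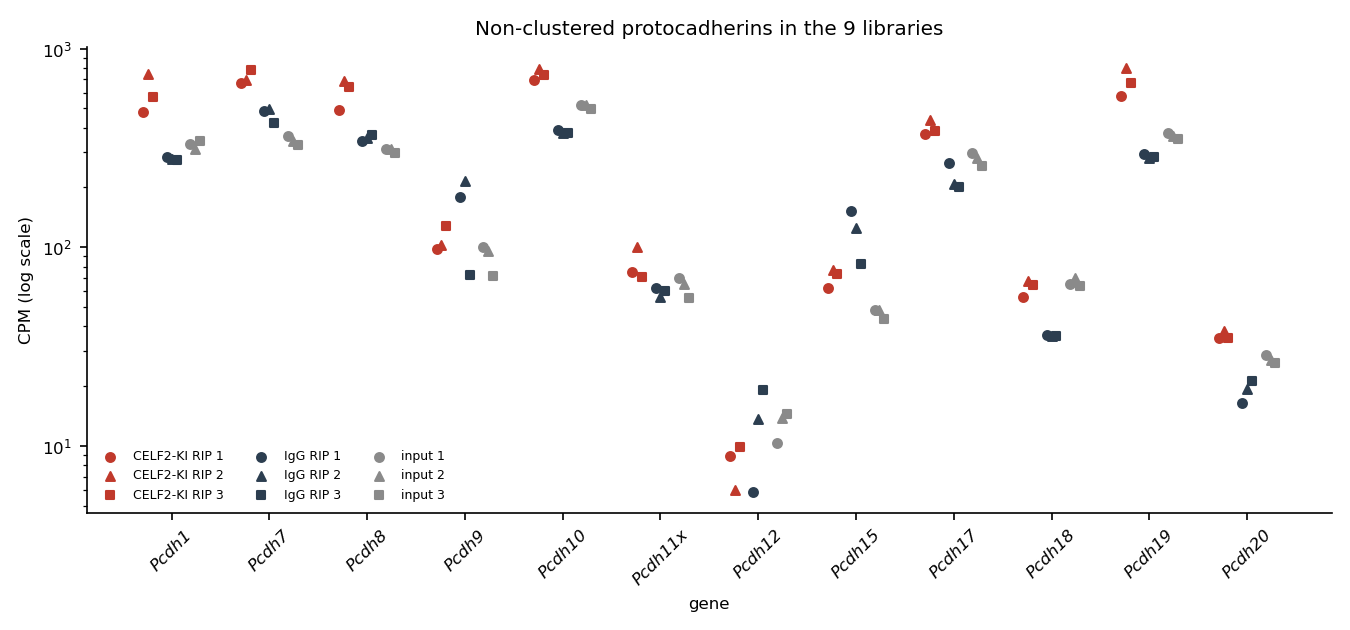
CPM (log scale) of the 12 non-clustered protocadherins in the 9 libraries, in red for CELF2-KI RIP, dark blue for IgG RIP and grey for input, with circles, triangles and squares for replicates 1, 2 and 3. Pcdh19, Pcdh10 and Pcdh1 are highest in CELF2-KI RIP, whereas Pcdh15 is highest with IgG and Pcdh9 is split between IgG RIP replicates.

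The isoforms behind a gene's sum differed between conditions in several non-clustered genes. The table held estimates per RefSeq transcript, of which accessions starting NM are curated, XM predicted coding and XR predicted noncoding, and reads common to isoforms were divided between them. The curated Pcdh9 transcript NM_001271798.1 was at 67.4, 94.7 and 88.6 CPM in CELF2-KI RIP, 29.3, 10.5 and 24.98 with IgG and 70.2, 70.7 and 53.8 in input. For this transcript CELF2-KI RIP and input were above IgG RIP in every library. The predicted XM_006518777.3 was at 16.7, 7.04 and 23.3 CPM in CELF2-KI RIP, 146, 201 and 47.2 with IgG and 28.9, 24.2 and 16.8 in input, and here IgG RIP was above all other libraries. The predicted transcript took 80.2% ± 14.0 (SD, n = 3) of Pcdh9 counts in IgG RIP, against 14.0% ± 6.3 in CELF2-KI RIP and 25.8% ± 2.8 in input. With curated transcripts alone, the Pcdh9 estimate over IgG RIP became 1.82 ± 0.28 (adjusted p = 0.00111), called higher, so the direction for Pcdh9 rests on which transcripts are counted.

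Pcdh1 showed the reverse dependence. Its predicted XM_006526323.3 was at 378, 575 and 425 CPM in CELF2-KI RIP, 176, 180.1 and 184 with IgG and 188, 72.4 and 190.2 in input, well above controls in CELF2-KI RIP. Its curated NM_029357.3 was at 26.8, 20.8 and 19.1 CPM in CELF2-KI RIP, 45.7, 34.8 and 44.7 with IgG and 29.2, 34.1 and 30.8 in input, lowest in CELF2-KI RIP and carrying 3.9% ± 1.5, 14.99% ± 2.1 and 9.6% ± 1.2 of the gene (SD, n = 3). On curated transcripts alone Pcdh1 was called lower than IgG RIP, at -1.06 ± 0.17 (adjusted p = 0.00142), and was -0.53 ± 0.17 (adjusted p = 0.034) over input. In Pcdh7, NM_018764.3 was at 99.4, 119 and 113 CPM in CELF2-KI RIP, 156, 203 and 141 with IgG and 46.8, 51.3 and 38.8 in input, highest in IgG RIP, while XM_006504023.3 was at 175, 214 and 279.6 CPM in CELF2-KI RIP, 101, 60.1 and 83.3 with IgG and 71.1, 70.1 and 67.3 in input, highest in CELF2-KI RIP. The curated Pcdh19 transcript NM_001105246.1 averaged 336 CPM in CELF2-KI RIP, 133 with IgG and 195 in input, with CELF2-KI RIP above all controls. The curated NM_001105245.1 averaged 63.1, 99.3 and 111 CPM, so that CELF2-KI RIP overlapped IgG RIP and lay below input. Pcdh15 counts went mostly to predicted noncoding transcripts, 67.4% ± 7.3 in CELF2-KI RIP, 85.9% ± 8.9 with IgG and 65.2% ± 4.4 in input. The most counted of these, XR_001779435.1, was at 9.04, 19.5 and 21.9 CPM in CELF2-KI RIP, 53.5, 44.1 and 29.95 with IgG and 10.99, 15.6 and 15.04 in input. Pcdh10 was free of predicted transcripts, and its NM_001098172.1 and NM_001098171.1 were at 315, 370.2 and 423 and 285, 317 and 233 CPM in CELF2-KI RIP, both above all their control libraries.

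**Figure D5:**
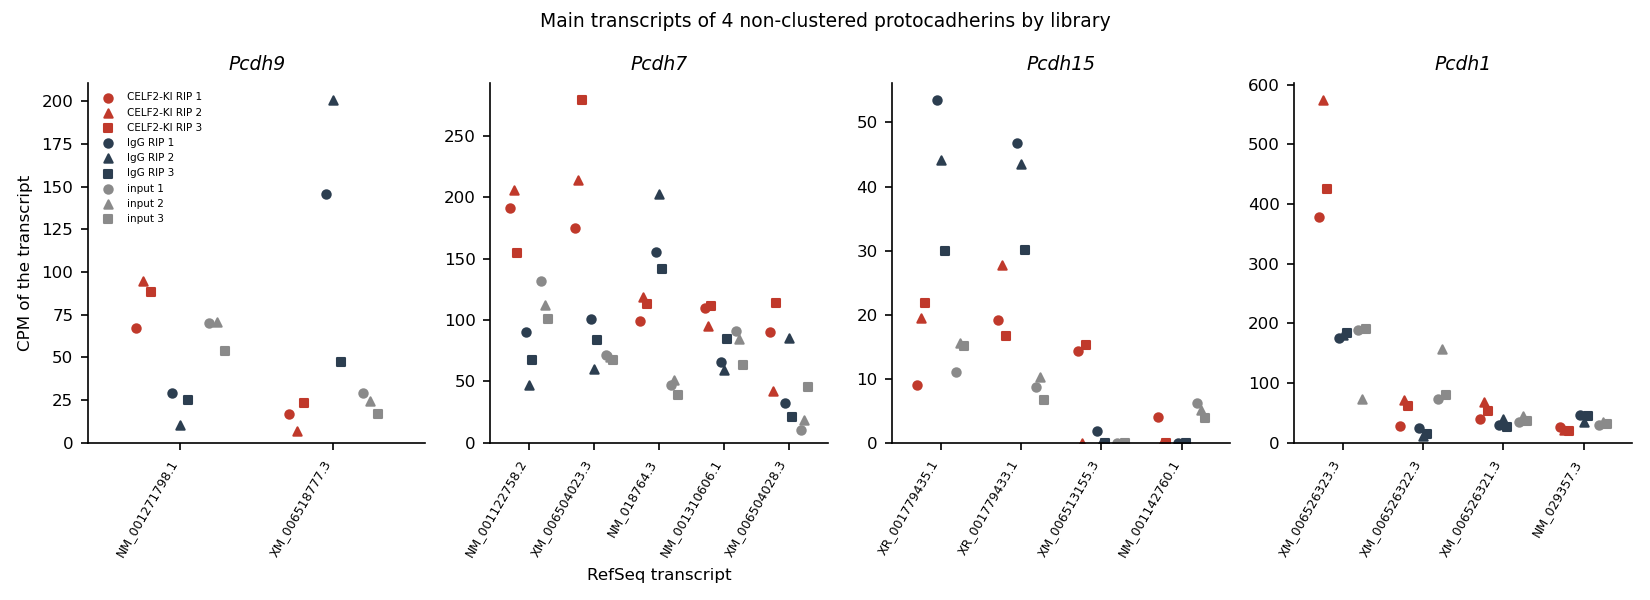
CPM (linear axes from 0) of the transcripts holding at least 10% of Pcdh9, Pcdh7, Pcdh15 or Pcdh1 counts in a condition, by library, in red for CELF2-KI RIP, dark blue for IgG RIP and grey for input, with circles, triangles and squares for replicates 1, 2 and 3. For Pcdh9 the curated transcript is lowest and the predicted one highest in IgG RIP, and for Pcdh1 the first predicted transcript is highest in CELF2-KI RIP while the curated one is lowest there.

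Genes that work with protocadherins were counted in the same way, beside 13.4% of all genes called higher and 13.5% called lower against IgG RIP. Of 25 cadherin relatives, which include classical cadherins and the large Fat, Dchs and Celsr cadherins of planar polarity, 24 were tested. Their medians were 0.18 over IgG RIP and 0.23 over input, of which 1 (4.17%) passed as higher and 0 as lower against IgG, and 3 (12.5%) and 1 against input, where 14.6% and 15.5% of all genes passed. Cdh4, R-cadherin, was the highest over IgG RIP at 1.02 ± 0.13 (adjusted p = 9.58e-05) and Cdh10 the lowest at -0.98 ± 0.13 (adjusted p = 0.000108). Celsr1, Celsr2 and Celsr3 were called higher than input, at 1.53, 1.24 and 1.41, while Celsr3 and Fat2 were also called higher in IgG RIP than in input, at 1.08 and 1.12. Of 16 genes of cluster promoter choice (CTCF, cohesin and DNA methylation factors), 0 were called higher than IgG RIP by edgeR, with 2 at an unadjusted p under 0.05, and 1 (6.25%) was called lower, the cohesin subunit Smc1a at -1.69 ± 0.16 (adjusted p = 1.72e-05). Rad21, another cohesin subunit, was the highest at 0.79 ± 0.11 (adjusted p = 0.000203). Of 18 genes of protocadherin signalling, such as the WAVE complex and the kinases held by clustered protocadherins, 2 (11.1%) were called higher than IgG RIP, near the background, and 0 lower, with a median of 0.30. Rac1, the GTPase upstream of WAVE, was highest at 1.75 ± 0.19 (adjusted p = 4.31e-05) and Ptk2, focal adhesion kinase, lowest at -1.05 ± 0.30 (adjusted p = 0.0128). Of 7 genes of protocadherin cleavage, 6 were tested, 3 were called higher than IgG RIP and 1 (16.7%) lower, with a median of 1.002. The gamma-secretase subunits Aph1b and Psenen were its extremes, at 2.19 ± 0.14 (adjusted p = 6.22e-06) and -2.39 ± 0.30 (adjusted p = 0.0001).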

How the data were processed

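RNA of 9 libraries was measured by RIP-seq of P0 cortical cytoplasm, 3 per condition, grouped by their titles. The authors depleted rRNA, made directional libraries, trimmed reads with fastp 0.23.4 after FastQC 0.11.9, removed rRNA reads with Ribodetector 0.3.1, and deposited estimated counts per transcript from kallisto 0.51.1, not normalized for depth or length. Their methods name Ensembl as the transcriptome, and the table carries RefSeq accessions. The submitters' notes list mm10, edgeR 4.4.0 and DESeq2 1.46.0. Whether kallisto used strand is not given in the sources used here.

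Here 86714 of 107384 transcripts were matched by accession, ignoring version, to a RefSeq gene table of GRCm38.p6, which was used for names, class and coordinates. Estimates were added up within a gene and rounded. The 15263 protein-coding genes reaching 0.5 CPM in 3 or more libraries entered edgeR 4.0.16 (R 4.3.3, limma 3.58.1) with TMM scaling, a mean per condition over all 9 libraries and the quasi-likelihood test. The biological coefficient of variation was 0.221. Calls needed a Benjamini-Hochberg FDR under 0.01 and at least 2-fold, after the study's thresholds. CPM used the TMM-scaled library size. Cluster sums entered the same model in place of their members, with no p. Python 3.11.15, pandas 2.3.3 and matplotlib 3.10.9 were used for tables and plots. The steps were tested on simulated data.

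The members and lists (cadherin relatives, cluster promoter choice, protocadherin signalling, protocadherin cleavage and cell type markers) were chosen with earlier results of these data known. Genes named with values are all tested non-clustered members, the 5 C-types, the 3 highest and 3 lowest over IgG RIP of each cluster, Celf2, and from each list the highest and lowest and any Fat, Dchs or Celsr gene called. Pcdha3, Pcdhb16, Pcdhb17, Pcdhb22, the other members named and the transcripts were chosen after their values were seen. Pcdhgb8, a transcribed pseudogene, is not protein-coding and was left out. Deviations from condition means, across genes, which are not independent, correlated between same-numbered CELF2-KI RIP and input libraries at 0.110, 0.117 and 0.123, and for CELF2-KI RIP with IgG RIP at -0.056, 0.043 and 0.014. For IgG RIP with input they were 0.030, 0.065 and 0.038. These correlations were weak and were not set against libraries of different number, so they do not settle whether numbers pair libraries. A replicate block was tried as an alternative. Replicates differed by more than sampling noise (chi-square per gene 11.9 to 52.5). Reads carry no molecular identifiers. Other alternatives were scaling, filters, DESeq2 1.42.0, a test against the 2-fold limit (glmTreat), other transcript sets and leaving out libraries.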

Additional observations from a re-analysis of the deposited data

How the results depend on the processing

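Medians and sums are given here as log2 fold changes less the median of all genes, and counts are protocadherins called. As reported, 14 were called higher than IgG RIP and 0 lower, 7 higher than input, 2 higher and 0 lower with IgG than in input and 5 higher than both controls. The reported medians were 0.758 (Pcdha over IgG RIP), 0.549 (Pcdhg over IgG RIP), 0.844 (non-clustered over IgG RIP), 0.654 (Pcdha over input), 0.0172 (Pcdha of IgG RIP over input), -0.242 (Pcdhb of IgG RIP over input), -0.282 (Pcdhg of IgG RIP over input) and -0.162 (non-clustered of IgG RIP over input), and the sums 0.818 (Pcdha over IgG RIP), 0.819 (Pcdhg over IgG RIP), 0.378 (Pcdha over input), 0.0231 (Pcdhg over input), -0.187 (Pcdha of IgG RIP over input), -0.125 (Pcdhb of IgG RIP over input) and -0.544 (Pcdhg of IgG RIP over input). Scaling by library totals gave 1 called higher than IgG RIP and 1 called lower than IgG RIP. It gave 0 called higher than input, against 3.48% of all genes, and 0 called higher than both controls, against 1.55%. DESeq2 size factors gave 4 called higher than input (5.88%, against 10.3% of all genes) and 3 called higher than both controls (4.41%, against 5.48%). Upper-quartile factors gave 4 called higher than IgG RIP and 1 called lower than IgG RIP. They gave 2 called higher than input (2.94%, against 7.71% of all genes) and 1 called higher than both controls (1.47%, against 3.4%). TMM over coding and noncoding genes gave 6 called higher than IgG RIP and 3 called lower with IgG than in input. It gave 0 called higher than input, against 4.63% of all genes, and 0 called higher than both controls, against 2.46%. Testing without a filter gave 4 called higher than input (5.8%, against 8.92% of all genes) and 2 called higher than both controls (2.9%, against 4.61%). Its relative sums were 0.743 (Pcdha over IgG RIP) and 0.438 (Pcdha over input). A minimum of 2 CPM in 3 libraries gave relative sums of 0.755 (Pcdha over IgG RIP), -0.0727 (Pcdhb of IgG RIP over input) and -0.492 (Pcdhg of IgG RIP over input). DESeq2's Wald test gave 4 called higher than input (5.88%, against 11.2% of all genes) and 3 called higher than both controls (4.41%, against 5.74%). It gave 2 called lower with IgG than in input. glmTreat gave 0 called higher than IgG RIP, 0 called higher than input, 0 called higher with IgG than in input and 0 called higher than both controls. Fitting only the conditions compared gave 1 called higher with IgG than in input and 1 called lower with IgG than in input. The replicate block gave 1 called lower with IgG than in input, with relative medians of 0.0536 (Pcdha of IgG RIP over input). Leaving out IgG RIP replicates 1 and 2 gave 9 called higher than IgG RIP, 1 called lower than IgG RIP, 4 called higher than input, 0 called higher with IgG than in input and 1 called higher than both controls, with relative medians of 0.669 (Pcdha over IgG RIP), 0.63 (non-clustered over IgG RIP), -0.337 (Pcdhb of IgG RIP over input), -0.437 (Pcdhg of IgG RIP over input) and -0.244 (non-clustered of IgG RIP over input), with relative sums of 0.66 (Pcdha over IgG RIP), 0.579 (Pcdhg over IgG RIP) and -0.446 (Pcdhg of IgG RIP over input). Counting Pcdha and Pcdhg each as 1 gene gave 1 called higher with IgG than in input, with relative medians of 0.804 (Pcdhg over IgG RIP), 0.377 (Pcdha over input), -0.173 (Pcdha of IgG RIP over input) and -0.529 (Pcdhg of IgG RIP over input). Curated transcripts alone gave 8 called higher than IgG RIP, 1 called lower than IgG RIP, 0 called higher with IgG than in input and 3 called higher than both controls, with relative medians of 0.68 (Pcdha over IgG RIP), 0.627 (non-clustered over IgG RIP), 0.798 (Pcdha over input), 0.192 (Pcdha of IgG RIP over input), -0.109 (Pcdhb of IgG RIP over input), -0.0968 (Pcdhg of IgG RIP over input) and -0.0552 (non-clustered of IgG RIP over input), with relative sums of 0.728 (Pcdha over IgG RIP), 0.525 (Pcdha over input), 0.17 (Pcdhg over input), 0.00948 (Pcdha of IgG RIP over input), 0.0715 (Pcdhb of IgG RIP over input) and -0.349 (Pcdhg of IgG RIP over input), with estimates of -1.06 (Pcdh1 over IgG RIP, against 1.1), -0.526 (Pcdh1 over input, against 0.862), -0.00594 (Pcdh17 over IgG RIP, against 0.823) and 1.82 (Pcdh9 over IgG RIP, against -0.501). Transcripts of matching version alone gave 8 called higher than IgG RIP, 1 called lower than IgG RIP, 4 called higher than input, 1 called higher with IgG than in input, 1 called lower with IgG than in input and 2 called higher than both controls, with relative medians of 0.672 (Pcdha over IgG RIP), 0.743 (Pcdha over input), 0.235 (Pcdha of IgG RIP over input) and -0.229 (non-clustered of IgG RIP over input), with relative sums of 0.592 (Pcdha over IgG RIP), 0.622 (Pcdha over input), 0.135 (Pcdhg over input), 0.259 (Pcdha of IgG RIP over input) and -0.0127 (Pcdhb of IgG RIP over input), with estimates of -1.04 (Pcdh1 over IgG RIP, against 1.1), -0.565 (Pcdh1 over input, against 0.862), 1.84 (Pcdh9 over IgG RIP, against -0.501) and -1.39 (Pcdh9 of IgG RIP over input, against 0.799). With curated transcripts 69 members were tested. Their shares higher than IgG RIP and both controls were 11.6% and 4.35%, against 9.92% and 5.18% of all genes. With transcripts of matching version only 52 members were tested. There 15.4% were higher than IgG RIP, 7.69% than input and 3.85% than both, against 10.2%, 9.67% and 5.13% of all genes. The block changed no other call count of the family by more than 1.5 times, and leaving out IgG RIP replicates 1 and 2 was chosen after seeing the data. In that fit the lone IgG RIP library was taken to vary like the other groups. Leaving out each library in turn gave 5 to 15 called higher than input, 1 to 3 called higher with IgG than in input, 0 to 2 called lower with IgG than in input, 1 to 8 called higher than both controls and 9 to 19 called higher than IgG RIP, with relative medians of -0.38 to -0.144 (Pcdhb of IgG RIP over input), -0.074 to 0.0957 (Pcdha of IgG RIP over input) and 0.561 to 0.673 (Pcdha over input) and relative sums of -0.543 to -0.497 (Pcdhg of IgG RIP over input), 0.688 to 0.824 (Pcdha over IgG RIP), -0.158 to -0.0695 (Pcdhb of IgG RIP over input), 0.689 to 0.854 (Pcdhg over IgG RIP), 0.217 to 0.404 (Pcdha over input) and -0.105 to 0.0769 (Pcdhg over input). Over these fits, 11.1% to 14.6% of all genes were called higher than IgG RIP and 10.1% to 16.7% higher than input. Higher than both controls were 5.16% to 8.94% of all genes. Fewer calls by glmTreat follow from its test against 2-fold, and the transcript sets count fewer reads. For the other changes the cause was not tested. Depth kept Pcdhb1 out of the test, and the standard errors of clustered genes and of isoforms do not include the division of shared reads.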
